A study of Mus musculus with 11 samples.

Results

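Pax3 and Pax7 are the paired box transcription factors of the muscle stem cell lineage, and they were read here by every probe set that the array annotation assigns to either gene alone. That rule gave 5 of 45037 probe sets, 3 for Pax3 and 2 for Pax7, out of 18193 genes measured, and 0 probe sets combined either symbol with another gene. The series followed sorted muscle cells over 3 postnatal ages on Affymetrix Mouse Genome 430 2.0 arrays. Cells of postnatal day 1 (P1) and day 12 (P12) were on 4 arrays each and those of day 28 (P28) on 3, labelled as biological replicates with no number of animals stated. All 11 arrays came from Pax3GFP/+ mice on a C57BL/6J background, in which 1 Pax3 allele carries green fluorescent protein (GFP), so every group was heterozygous for Pax3 and no Pax3+/+ group was analysed here. How this allele is built, and whether its transcript is read by any Pax3 probe set, is not given in the sources used here, so a Pax3 value may hold RNA of 1 allele or both. Cells were sorted on GFP, with dead cells excluded by propidium iodide. The P1 and P12 cells came from trunk muscle and were labelled as proliferating satellite cells. The P28 cells were labelled as satellite cells of muscle of the chest and belly wall (abdominal, intercostal and pectoral). The internal sample names of the P28 arrays carry another suffix than those of the P1 and P12 arrays. For P28, age, dissected muscles and a possible batch therefore cannot be told apart.

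Pax3 and Pax7 are closely related proteins that bind DNA through a paired domain and a homeodomain. Pax3 acts in the muscle precursors of the embryo, where it controls delamination and migration, and it stays active after birth in satellite cells of certain muscles, among them trunk muscles. Pax7 marks satellite cells in all muscles and is required to maintain them after birth. Because the sort gate used fluorescence from the Pax3 locus, the Pax3 level at each age is the level in cells picked for activity of that locus. In such bulk samples, fewer cells of a type and less RNA per cell cannot be told apart.

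The 5 probe sets of these 2 genes did not move alike with age. One Pax3 probe set (1441743_at) and one Pax7 probe set (1444596_at) did not pass the test in any comparison. The other Pax3 probe sets were higher at P28 than at P1, by 1.59-fold (1420389_at, a call that did not hold with a covariate for 3' bias) and 2.20-fold (1430335_a_at). The other Pax7 probe set (1452510_at) had its 3 P28 arrays above all P12 arrays without passing the test (adjusted p = 0.0513, limma). In the RefSeq table Pax3 has 2 transcripts and Pax7 has 4, and which of them each probe set reads is not given in the sources used here. The annotation lists a RefSeq mRNA as the target of 1420389_at, a RIKEN cDNA for 1430335_a_at, expressed sequence tags for 1441743_at and 1444596_at, and a GenBank mRNA for 1452510_at.

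**Figure D1:**
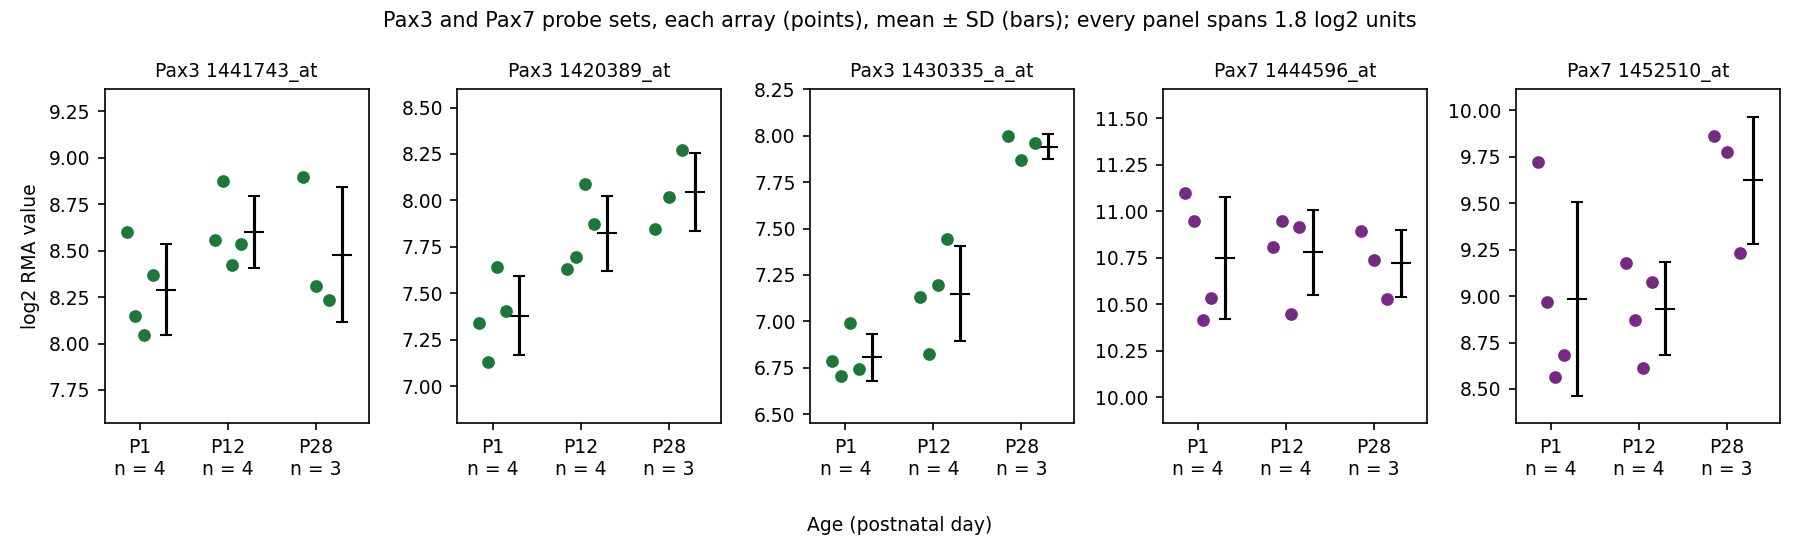
Each panel shows 1 probe set of Pax3 (green) or Pax7 (purple), with age on the horizontal axis (P1 and P12, n = 4 arrays each; P28, n = 3 arrays) and the log2 RMA value on the vertical axis. Points are arrays and bars are the mean ± SD. The P28 arrays of 1430335_a_at, between 7.87 and 7.997, lie above every array of the other ages, whereas the ages overlap for 1441743_at and 1444596_at.

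Values are log2 RMA values as deposited, so 1 unit is a doubling, and a level is not compared between probe sets because each has its own affinity. The Pax3 probe set 1441743_at read 8.60, 8.15, 8.05 and 8.37 on the P1 arrays, 8.56, 8.88, 8.43 and 8.54 on the P12 arrays, and 8.89, 8.31 and 8.23 on the P28 arrays. The ages overlapped in all 3 comparisons, with P28 replicate 1 as the highest array of the series for this probe set. The means were 8.29 ± 0.25, 8.60 ± 0.19 and 8.48 ± 0.36 from the youngest age to the oldest (SD; n = 4, 4 and 3). The log2 change was 0.31 ± 0.17 (SE; 95% confidence interval -0.06 to 0.67) at P12 against P1, -0.12 ± 0.18 (-0.51 to 0.27) in P28 against P12 and 0.19 ± 0.18 (-0.20 to 0.58) in P28 against P1. These intervals contain 0, and the adjusted p-values from limma were 0.365, 0.670 and 0.460.

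The Pax3 probe set 1420389_at read 7.34, 7.13, 7.64 and 7.40 on the P1 arrays, 7.63, 7.70, 8.09 and 7.87 on the P12 arrays, and 7.85, 8.02 and 8.27 on the P28 arrays. All P28 arrays lay above all P1 arrays, while P12 overlapped with both, with P1 by a narrow margin. The change was 0.67 ± 0.16 in P28 against P1 (limma, adjusted p = 0.00458). This call was lost with the 3' to 5' control difference of Gapdh (0.36, adjusted p = 0.144) or beta-actin (0.39, adjusted p = 0.155) as a covariate. In P12 against P1 it was 0.44 ± 0.15 with an interval of 0.13 to 0.75 (adjusted p = 0.105). With the replicate number as a block, the same change of 0.44 passed (limma, adjusted p = 0.0415). The sample titles state no pairing of the arrays, and the pairing by number was inferred from the arrays themselves. The step of P28 against P12 was 0.22 ± 0.16 (-0.11 to 0.56; adjusted p = 0.318).

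The Pax3 probe set 1430335_a_at read 6.79, 6.70, 6.99 and 6.74 on the P1 arrays, 7.13, 6.82, 7.20 and 7.44 on the P12 arrays, and 7.997, 7.87 and 7.96 on the P28 arrays. Every P28 array was above every other array, and P12 replicate 2 lay within the P1 range. It rose by 0.79 ± 0.14 in P28 against P12, which is 1.73-fold (limma, adjusted p = 0.000973), and by 1.13 ± 0.14 in P28 against P1 (adjusted p = 4.13e-05). In P12 against P1 the change was 0.34 ± 0.13 (0.06 to 0.63; adjusted p = 0.174). The P28 rise against P1 passed in each of the 20 alternative settings run, between 0.86 and 1.20.

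The Pax7 probe sets also differed from each other in their changes with age, though neither passed the test in any comparison. Probe set 1444596_at read 11.10, 10.95, 10.42 and 10.53 on the P1 arrays, 10.81, 10.95, 10.45 and 10.91 on the P12 arrays, and 10.89, 10.74 and 10.53 on the P28 arrays. The ages overlapped throughout. The changes were 0.03 ± 0.17 (-0.33 to 0.39) in P12 against P1, -0.06 ± 0.18 (-0.45 to 0.33) in P28 against P12 and -0.03 ± 0.18 (-0.42 to 0.36) in P28 against P1, with adjusted p-values of 0.955, 0.842 and 0.921 from limma.

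Probe set 1452510_at of Pax7 read 9.72, 8.97, 8.57 and 8.68 on the P1 arrays, 9.18, 8.87, 8.61 and 9.07 on the P12 arrays, and 9.86, 9.78 and 9.23 on the P28 arrays. The P28 arrays did not overlap with P12, but P1 replicate 1 lay within the P28 range and far above the other P1 arrays. The change was 0.69 ± 0.25 (0.16 to 1.22) in P28 against P12 and 0.64 ± 0.25 (0.10 to 1.17) in P28 against P1 (limma, adjusted p = 0.0513 and 0.0612), and -0.05 ± 0.23 in P12 against P1 (adjusted p = 0.944). Its residual SD of 0.39 stood at percentile 95.7 among 3080 probe sets of similar mean level. P1 replicate 1 decided part of this: without it the changes were 0.69 in P28 against P12 (adjusted p = 0.0117) and 0.88 in P28 against P1 (adjusted p = 0.00346). Without P28 replicate 3 they were 0.89 and 0.83 and also passed (adjusted p = 0.0268 and 0.0310).

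**Figure D2:**
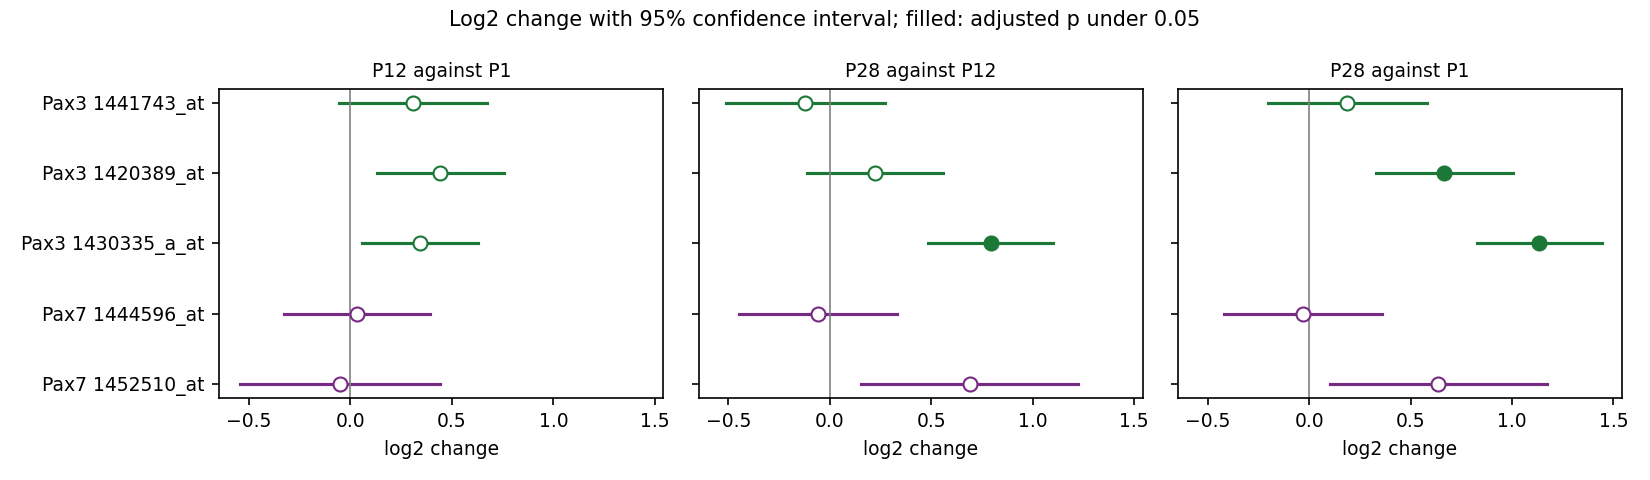
Log2 change of each Pax3 (green) and Pax7 (purple) probe set in the 3 comparisons, 1 per panel, with bars for the 95% confidence interval of the limma fit and filled points for an adjusted p under 0.05. The filled points are 1430335_a_at in both comparisons with P28 (0.79 and 1.13) and 1420389_at in P28 against P1 (0.67).

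Over all probe sets, 0 of the 5 passed in P12 against P1, where 4.84% of all probe sets passed. In P28 against P12, 1 of 5 passed against 29.4% of all probe sets, and in P28 against P1, 2 of 5 passed against 35.0%. All 3 of those calls were increases, and increases made up 13.5% of all probe sets in P28 against P12 and 17.6% in P28 against P1. With only 5 probe sets of 2 genes, these counts are too small to set Pax3 and Pax7 apart from the array as a whole. Arrays that did not overlap and were higher at the later age were found for 2 of 5 in P28 against P12 (15.4% of all probe sets) and 2 of 5 in P28 against P1 (19.3%), and for 0 of 5 in P12 against P1 (6.18%). In a test for any difference among the ages, 1420389_at (adjusted p = 0.0101) and 1430335_a_at (adjusted p = 0.000125) passed, as did 36.3% of all probe sets, and 1452510_at did not (adjusted p = 0.0745).

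Whether the probe sets of 1 gene changed by unequal amounts was tested as the difference between them within each array, over all 16752 such pairs. For Pax3, 1441743_at minus 1430335_a_at was between 1.06 and 1.81 on the P1 arrays, between 1.09 and 2.05 on the P12 arrays and between 0.27 and 0.90 on the P28 arrays. The P28 arrays thus lay below both other ages. The change in this difference was -0.91 ± 0.25 in P28 against P12 (limma, adjusted p = 0.0157) and -0.95 ± 0.25 in P28 against P1 (adjusted p = 0.0101), and -0.03 in P12 against P1 (adjusted p = 0.968). An exact two-sided permutation test gave p = 0.0571 for either comparison with P28, the smallest that 4 against 3 arrays allow. The difference between 1441743_at and 1420389_at overlapped between the ages and changed by -0.48 ± 0.27 in P28 against P1 (adjusted p = 0.194). Without P28 replicate 1 that value was -0.78 and passed (adjusted p = 0.0448). For the difference between 1441743_at and 1430335_a_at, the call in P28 against P12 was lost without P28 replicate 2 (-0.86, adjusted p = 0.0564) or P28 replicate 3 (-0.78, adjusted p = 0.0753), and in P28 against P1 without P28 replicate 3 (-0.81, adjusted p = 0.0541).

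For Pax7, the difference 1444596_at minus 1452510_at was between 1.38 and 1.98 on the P1 arrays, between 1.63 and 2.08 on the P12 arrays and between 0.96 and 1.30 on the P28 arrays, so P28 did not overlap with either age. It changed by -0.75 ± 0.18 in P28 against P12 (limma, adjusted p = 0.00840) and by -0.67 ± 0.18 in P28 against P1 (adjusted p = 0.0118), and by 0.08 ± 0.17 in P12 against P1 (adjusted p = 0.883). Without P28 replicate 2 the P28 against P1 value was -0.60 and missed the threshold (adjusted p = 0.0502). Unequal change between probe sets of a gene was common: 26.2% of all pairs passed in P28 against P12, 33.6% in P28 against P1 and 1.61% in P12 against P1.

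**Figure D3:**
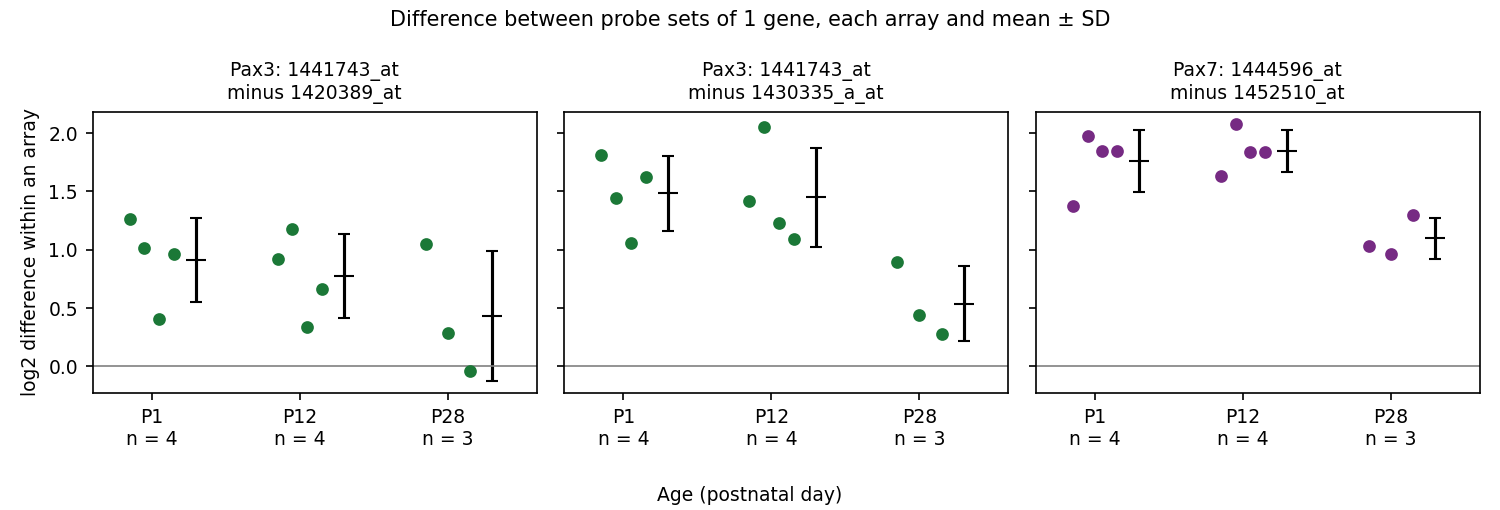
Difference between probe sets of the same gene within each array (log2) by age, with points for arrays and bars for the mean ± SD (P1 and P12, n = 4; P28, n = 3). The differences 1441743_at minus 1430335_a_at and 1444596_at minus 1452510_at are lower on all P28 arrays (at most 0.90 and 1.30) than on the arrays of the other ages, while 1441743_at minus 1420389_at overlaps.

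The 3' bias of the arrays, which is how far the signal of a control gene falls toward the 5' end of its transcript, moved with these values. The Gapdh 3' minus 5' control difference was 2.59, 2.79, 1.69 and 1.62 at P1, 2.64, 3.05, 1.32 and 1.38 at P12, and 0.99, 0.92 and 0.79 at P28. Replicates 1 and 2 of P1 and P12 (called array set 1) exceeded replicates 3 and 4 (array set 2), and P28 was lowest. The Pax3 probe sets that were high at P28 were also higher in array set 2. For 1420389_at the means were 7.52 in set 2 and 7.24 in set 1 at P1, and 7.98 and 7.66 at P12. For 1430335_a_at they were 6.87 and 6.75 at P1, and 7.32 and 6.98 at P12.

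The set means of the other probe sets went the opposite way. Each of these means is of 2 arrays. Single arrays of the 2 sets overlapped for 1441743_at and 1430335_a_at at P1 and for both Pax7 probe sets at P12. Pax7 1452510_at also had its highest age mean at P28 (9.62), where the control difference was lowest. In array set 2 and array set 1, 1441743_at averaged 8.21 and 8.37 at P1 and 8.48 and 8.72 at P12. For Pax7, 1444596_at averaged 10.47 and 11.02 at P1 and 10.68 and 10.88 at P12, and 1452510_at averaged 8.62 and 9.35 at P1 and 8.84 and 9.02 at P12. The array sets were drawn from this technical measure and their difference was not tested. Within the sets, the P12 against P1 change of 1420389_at was 0.43 in set 1 and 0.46 in set 2, close to the pooled 0.44. It was 0.34 and 0.27 for 1441743_at and 0.23 and 0.45 for 1430335_a_at. For Pax7 the sign differed between the sets, with -0.15 and 0.21 for 1444596_at and -0.32 and 0.22 for 1452510_at, and none of these within-set changes passed.

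**Figure D4:**
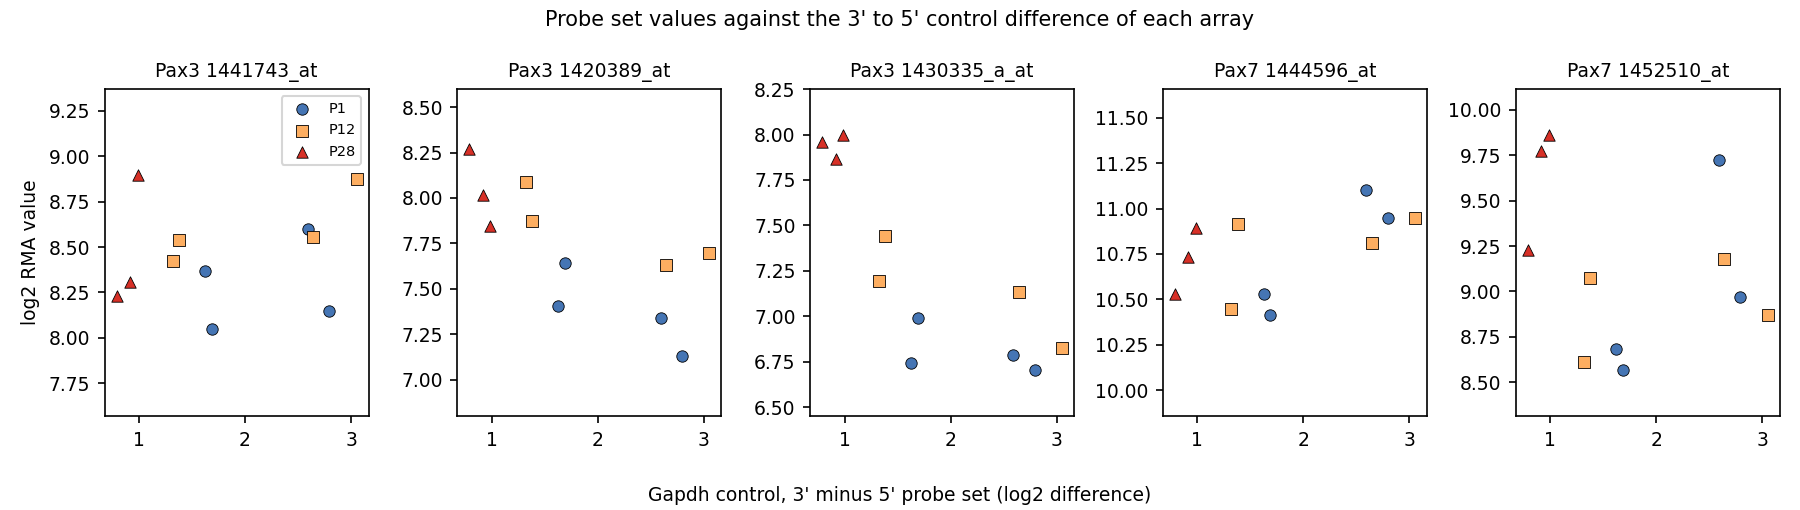
Log2 RMA value of each Pax3 and Pax7 probe set (vertical axis) against the Gapdh 3' minus 5' control difference of the same array (horizontal axis, log2), with 1 point per array and the symbol and colour giving the age. The P28 arrays sit at the low end of the axis (0.79 to 0.99), P1 and P12 fall into 2 clusters each, and at both of these ages 1420389_at is lower in the cluster with the larger difference.

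With the Gapdh 3' to 5' difference as a covariate, 1420389_at, whose call was lost as given above, changed by -0.06 in P28 against P12. The rise of 1430335_a_at kept passing in both comparisons with P28. Pax7 1452510_at passed under that covariate, at 1.02 in P28 against P12 (adjusted p = 0.0308) and 0.99 in P28 against P1 (adjusted p = 0.0328). The difference between 1441743_at and 1430335_a_at was then -0.46 and -0.47 and did not pass (adjusted p = 0.270 and 0.243). The Pax7 pair did not pass in P28 against P1 (-0.68, adjusted p = 0.0625). With the beta-actin control in its place, a covariate chosen after seeing the data, 1430335_a_at changed by 0.51 in P28 against P12 (adjusted p = 0.0522). As the covariate was lowest at P28, it shares much of its variation with age, and the part of 3' bias in the differences between probe sets was not tested further.

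Pax7 was set against Pax3 by the within-array difference of the probe set with the highest mean of each gene, 1444596_at minus 1441743_at. From the youngest age to the oldest the means were 2.46 ± 0.27, 2.18 ± 0.16 and 2.24 ± 0.22 (SD; n = 4, 4 and 3). The changes were -0.28 in P12 against P1, 0.06 in P28 against P12 and -0.22 in P28 against P1. Exact two-sided permutation tests gave p = 0.143, 0.686 and 0.343 (0.429, 0.686 and 0.514 after adjustment over the 3 comparisons), where 4 against 4 arrays cannot go below 0.0286 and 4 against 3 cannot go below 0.0571. With these limits no adjusted value could fall under 0.05, so the adjusted tests could not give a call in any comparison. Averaged over its probe sets, Pax3 changed by 0.36, 0.30 and 0.66 in these comparisons and passed each time (limma, adjusted p = 0.0312, 0.0338 and 0.000167), and Pax7 changed by -0.01, 0.32 and 0.30 and did not.

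The other paired box genes read low on the array. Of 7 such genes, Pax2 was not analysed here, and the 15 probe sets of the other 6 read between 3.18 and 6.25, with 1 of 15 above the median of all probe sets (5.54). The bacterial Trp controls, which mark background, averaged 3.36 to 3.64 per array. Only Pax6 probe sets passed, 3 of them in P28 against P1 (-0.39, -0.39 and -0.38), where 35.0% of all probe sets passed. The Pax6 probe set with the highest mean did not pass without P1 replicate 3, P28 replicate 1 or P28 replicate 3. It also did not pass with quantile normalization or with either 3' to 5' covariate.

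Pax3 and Pax7 act through a set of reported target genes, of which 13 were measured with 1 probe set each. In P12 against P1, 3 rose and 0 fell, where 3.94% of all genes rose and 1.85% fell. Ret, the GDNF receptor kinase, averaged 8.12 ± 0.24 at P12 and 6.88 ± 0.27 at P1 (SD, n = 4 each), a rise of 1.24 ± 0.16 (limma, adjusted p = 0.000956). Cxcr4, the chemokine receptor of migrating precursors, rose by 0.74, and Met, the hepatocyte growth factor receptor, by 0.70. The call on Cxcr4 was lost with quantile normalization and within array set 1. The call on Met was lost when P1 replicate 3, P1 replicate 4, P12 replicate 1 or P12 replicate 2 was left out. It was also lost with the mean of its probe sets and within either array set. The median change over the targets was 0.20, beside 0.02 for all genes.

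In P28 against P12, 2 targets rose and 3 fell, where 15.5% of all genes rose and 15.4% fell. Id3, an inhibitor of basic helix-loop-helix factors, averaged 12.13 ± 0.10 at P28 and 10.55 ± 0.35 at P12 and rose by 1.58 ± 0.21 (limma, adjusted p = 9.75e-05). Ret, the other gene that rose, did so by 0.90. Met fell by 1.13, to 9.13 ± 0.16 at P28 against 10.26 ± 0.33 at P12. Itm2a, a membrane protein gene, fell by 1.01, and Lbx1, a homeobox factor of migrating precursors, fell by 0.69. The median of the targets was 0.02 against -0.03 for all genes.

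In P28 against P1, 3 of the 13 targets rose (19.9% of all genes) and 2 fell (16.3%). Ret rose by 2.14 ± 0.18 and Id3 by 2.12 ± 0.21, and Mitf, the melanocyte factor, by 0.58 (0.31, not passing, when averaged over its probe sets). Lbx1 fell by 0.92 and Itm2a by 0.82. With the Gapdh covariate 7 targets rose and 0 fell in this comparison, and Lbx1 was among the genes that no longer passed.

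Of 14 cofactors and modifying enzymes of Pax3 or Pax7, 0 passed in P12 against P1. In P28 against P12, 0 rose and 5 fell, where 15.5% of all genes rose and 15.4% fell, and the median was -0.28 beside -0.03 for all genes. In P28 against P1, 1 rose and 4 fell, where 19.9% of all genes rose and 16.3% fell, and the median was -0.17 beside -0.02 for all genes. Kmt2d, a histone H3K4 methyltransferase, averaged 10.01 ± 0.29 at P28 and 10.95 ± 0.44 at P12 and fell by 0.95 (limma, adjusted p = 0.00468). That call was lost with the mean of its probe sets and with either 3' to 5' covariate, where the change was as small as -0.29. Ash2l, a core subunit of such methyltransferase complexes, fell by 0.73, and Paxbp1, the adaptor that joins Pax3 and Pax7 to them, fell by 0.59, a call lost with either covariate. Ash2l did not pass with the beta-actin covariate. The other 2 that fell were Rbbp5 (-0.57) and Trim28 (-0.56), named after their values were seen. Sirt2, a deacetylase reported to act on Pax7, rose by 0.83 ± 0.15 in P28 against P1 (adjusted p = 0.000836). With the Gapdh covariate the number that fell was 2 in P28 against P12 and 1 in P28 against P1, with the beta-actin covariate it was 1 and 0, and without P28 replicate 1 it was 2 in P28 against P1.

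**Figure D5:**
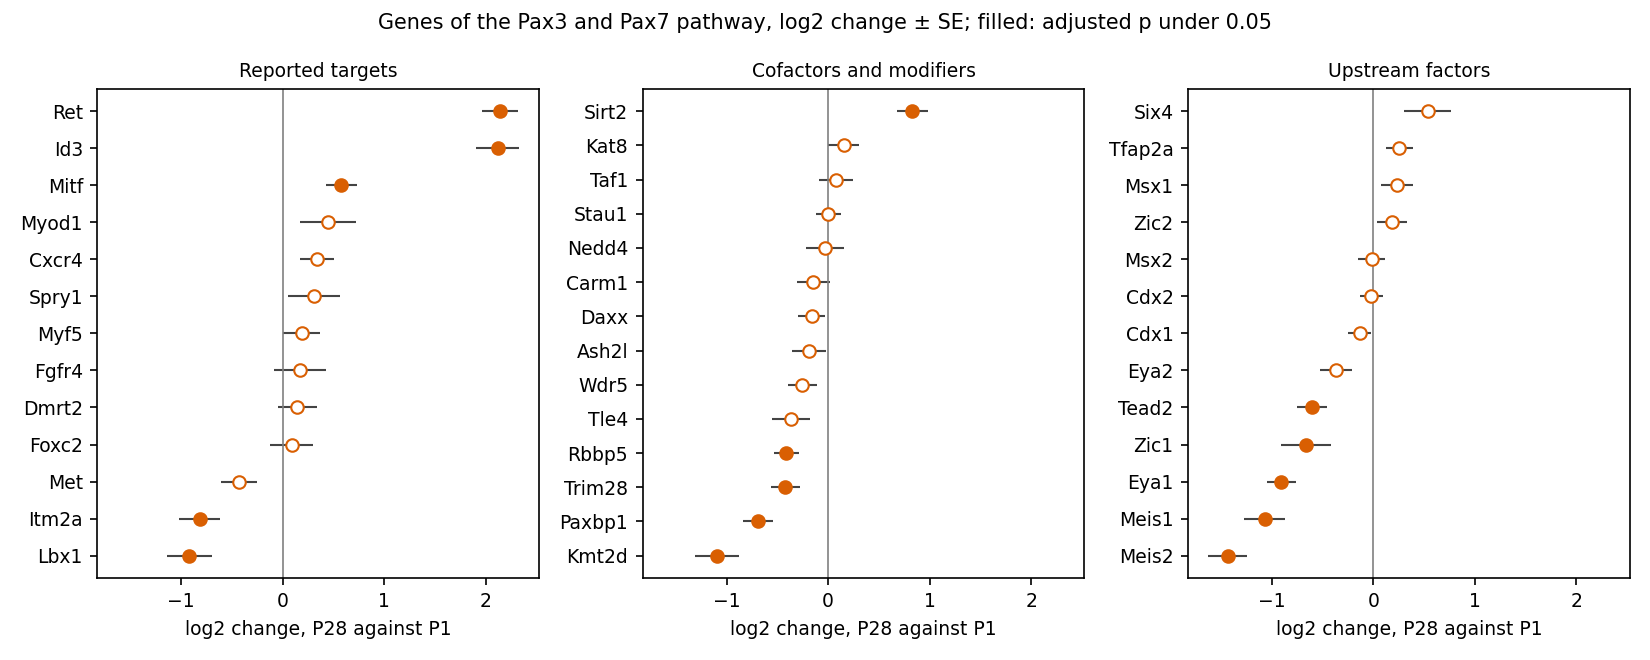
Log2 change ± SE in P28 against P1 for the measured reported targets, cofactors and modifiers, and upstream factors of Pax3 and Pax7, 1 probe set per gene, filled where the adjusted p was under 0.05. Ret (2.14) and Id3 (2.12) lie furthest to the right and Meis2 (-1.44) furthest to the left.

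Of the factors that act upstream of Pax3 or Pax7 in the embryo, 13 of 16 were analysed here. Six4, a homeobox factor that drives Pax3 in muscle precursors, rose by 1.10 ± 0.21 in P12 against P1 (limma, adjusted p = 0.0108), and none fell. In P28 against P12, 0 rose and 4 fell, where 15.4% of all genes fell, and in P28 against P1, 0 rose and 5 fell, where 16.3% of all genes fell. The median changes were -0.29 and -0.14, beside -0.03 and -0.02 for all genes. The homeobox gene Meis2 averaged 9.11 ± 0.17 at P1, 8.82 ± 0.25 at P12 and 7.68 ± 0.42 at P28, with changes of -1.14 in P28 against P12 and -1.44 in P28 against P1. Its relative Meis1 fell by 0.79 and 1.07 in these comparisons, and Eya1, a coactivator of Six4, fell by 0.91 in P28 against P1. Averaged over its probe sets, Eya1 changed by -0.03 and did not pass. Tead2, a transcription factor of the Hippo pathway, fell by 0.60 in P28 against P12. With either 3' to 5' covariate, 1 upstream factor fell in P28 against P12 and 3 fell in P28 against P1, and Meis1 and Tead2 were among the genes that no longer passed in P28 against P12.

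Satellite cell markers were measured for 11 of 11 genes. At P12, 3 rose against P1, where 3.94% of all genes rose and 1.85% fell, namely Calcr, the calcitonin receptor (0.76 ± 0.16), Chrdl2, a BMP antagonist (0.74 ± 0.14), and Sdc4, a surface proteoglycan (0.63 ± 0.15). The 1 that fell was the surface sialomucin Cd34 (-0.60, named here after its values were seen), and this count was 0 when any single array other than P28 replicate 1 or 3 was left out. With the replicate number as a block 5 rose and 0 fell, and without P1 replicate 3 or 4 only 1 rose. The call on Sdc4 was also lost without P1 replicate 1, P12 replicate 1 or P12 replicate 4. It was lost too with quantile normalization, with the mean of its probe sets and within either array set. The calls on Calcr and Chrdl2 were lost within array set 1. In P28 against P12, 4 rose (15.5% of all genes) and 1 fell (15.4%), and in P28 against P1, 6 rose (19.9%) and 0 fell (16.3%). The 1 that fell was Megf10, an engulfment receptor (-0.72, named after its values were seen), and this count was 0 without P12 replicate 1, P12 replicate 2 or P28 replicate 3. Chrdl2 averaged 8.28 ± 0.22 at P1, 9.03 ± 0.23 at P12 and 11.73 ± 0.08 at P28. It rose at P28 by 2.70 against P12 and 3.45 against P1, and Sdc4 by 1.86 and 2.49.

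Pax3 is also active in the neural crest, whose melanocytes and Schwann cells could pass a Pax3 gate. The 11 melanocyte markers averaged 5.02 to 5.19 per array at P1, 4.93 to 4.98 at P12 and 5.09 to 5.26 at P28, with 6 of 11 below the median of all probe sets. In P28 against P1, 2 rose (Ednrb by 1.30 and Mitf by 0.58) and 0 fell, where 19.9% of all genes rose and 16.3% fell. The pigment enzymes Dct and Tyr, named after their values were seen, did not pass. Dct averaged 4.34 ± 0.41 at P28 and 4.57 ± 0.31 at P1, and Tyr averaged 4.08 ± 0.10 at P28 and 4.28 ± 0.16 at P1. Of 7 Schwann cell markers, Ngfr rose by 0.81 and Erbb3 fell by 1.36 in P28 against P1, and Sox10, the crest factor common to both lists, averaged 6.44 ± 0.25 at P28 and 6.64 ± 0.23 at P1. Egr2, the member of the Schwann cell list with the highest mean, averaged 12.02 ± 0.34 at P1, 12.31 ± 0.34 at P12 and 12.03 ± 0.10 at P28. It did not pass in any comparison. Other members of that list read far lower, with Ngfr at 6.57 at P1 and 7.38 at P28 and Erbb3 at 7.08 and 5.72. Which cells gave the Egr2 value was not tested.

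Many markers of other muscle-resident cells were higher at P28. Over all genes, 15.5% rose and 15.4% fell in P28 against P12. In P28 against P1, 19.9% of all genes rose and 16.3% fell. The mean of 6 endothelial markers was 5.79 to 6.52 per array at P1, 6.06 to 6.82 at P12 and 8.05 to 8.90 at P28, and 6 of 6 rose at P28 against either younger age. The mean of 7 leukocyte markers was 6.98 to 7.45 at P1, 6.38 to 6.98 at P12 and 9.23 to 9.72 at P28, where 4 of 7 rose against either younger age (S100a9 by 5.78 and S100a8 by 5.53 against P12). The mean of 7 muscle fibre markers was 8.15 to 8.45 at P1, 8.21 to 9.65 at P12 and 11.21 to 11.79 at P28, where 6 of 7 rose and 1 fell. The mean of 5 fibro-adipogenic markers was 9.76 to 10.25 at P1, 9.50 to 9.96 at P12 and 10.66 to 11.41 at P28, where 3 rose against P12 and 2 against P1. Some of these markers also changed in P12 against P1, where 3.94% of all genes rose and 1.85% fell. Among the muscle fibre markers, Myh4 rose by 3.32 (a call lost within array set 1) and Pvalb by 3.29, and Myh8 fell by 1.93. The fibro-adipogenic marker Pdgfra fell by 1.45 and the leukocyte marker Cd68 by 1.38, and 0 endothelial markers passed. The part of these cells in the values of Pax3 and Pax7 was not tested at P28 or at the younger ages.

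The genes whose profile over the 11 arrays was most like each probe set, by Pearson's r among 10882 genes, also differed within a gene. For Pax3 they were Acbd5 (0.90), Tef (0.84) and Rabl3 (0.84) with 1441743_at, Rchy1 (0.93), Ada (0.92) and Vti1a (0.92) with 1420389_at, and Cd302, Mpc1 and S100a6 (0.98 each) with 1430335_a_at. For Pax7 they were Rps4x (0.93), Cnnm3 (0.91) and Abca7 (0.91) with 1444596_at, and Camk2n1 (0.97), Nrbp1 (0.95) and Calcrl (0.95) with 1452510_at. For 1430335_a_at, 534 genes had an r over 0.9, against 0 for 1441743_at and 5 for 1444596_at. These values are a description, since all genes share the same arrays, ages and 3' bias.

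In RefSeq gene order the nearest neighbours of Pax3 are Epha4 and Gm2102, with Slc4a3 and Sgpp2 beyond them. Gm2102 fell by 1.08 in P28 against P12 and by 1.36 in P28 against P1, Slc4a3 changed by -0.46 at P12 against P1 and by 0.65 at P28 against P12 (limma, adjusted p = 0.0241 and 0.000700), and Epha4 and Sgpp2 did not pass. Of the neighbours of Pax7, Aldh4a1, Tas1r2 and Igsf21 did not pass in any comparison and Klhdc7a was not analysed here.

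Arrays of the same age correlated at 0.981 to 0.994, P1 with P12 arrays at 0.973 to 0.986, and P28 arrays with the younger ones at 0.936 to 0.965. Of the variance, 57.8% lay on the first principal component. No 2 arrays were identical (0 pairs), and arrays give no read depth, so their number limits the precision.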

How the data were processed

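Expression was measured on 11 arrays of GFP-sorted cells at 3 ages. The authors deposited log2 values per probe set. The submitters' processing notes name RMA, affy and Affymetrix Expression Console, with no version or role. RMA corrects background, quantile-normalizes and summarises probes by median polish, and it shrinks differences of dim probe sets. Per the labels, single-stranded cDNA was fragmented and biotin-labelled with a NuGEN kit. RNA quality can move a probe set according to its place in the transcript. No build is given and no position is reported.

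Of 45101 probe sets, 64 controls were left out. Names came from the supplied annotation (34958 probe sets with 1 symbol, 932 with several, 9211 with none). Of these, 34754 were found in RefSeq by Entrez ID and 0 symbols changed. Groups came from the titles. limma 3.58.1 in R 4.3.3 was fitted to all 11 arrays with group means and moderated by eBayes, with 8 residual degrees of freedom and 5.82 prior ones, two-sided, with Benjamini-Hochberg adjustment over 45037 probe sets. "Rose", "fell" and "passed" mean an adjusted p under 0.05. Changes carry the SE of the fit. P-values measure the spread between these arrays, which may be partly technical. Pairs of probe sets of a gene (the highest mean minus each other one) were fitted likewise over 16752 pairs. For 11 gene lists, each gene had its probe set of highest mean, with no set test, and 100 of 107 memberships were analysed here. The fits were tested on simulated data.

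Deviations from the age means of same-numbered P1 and P12 arrays correlated over all probe sets by 0.143 to 0.311 in every pair. P12 replicate 1 correlated most with P1 replicate 2. The numbers were therefore used to pair these ages in the replicate block, which was an alternative setting only. The main fit held no term for a pairing, and the sample titles state none. The array sets follow the same numbers, and a pairing was not tested apart from them. P28 was not paired (-0.122 to 0.0931).

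The probe sets, lists and tests were chosen with earlier results of these data known. Every probe set of Pax3 and Pax7 was named. Other names were drawn from up to 3 called members of each list and comparison with the largest change. They were also drawn from the 3 highest members of lists of other cell types and the 3 genes most like each probe set. The neighbours of both genes were named as well. Not every gene that these rules allow is named. Further genes of the lists are marked in the text as named after their values were seen. Alternatives were median centring, quantile normalization, leaving out dim probe sets, 1 probe set or the mean per gene, weighted arrays, the trend and robust options of eBayes, the 2 ages alone, the replicate number or array set as a block, each array set alone, 3' to 5' covariates, and each array left out.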

Additional observations from a re-analysis of the deposited data

Results flagged for a closer look

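At P1 and P12, no Pax3 or Pax7 probe set had an array set apart from the others of its age by a Dixon test, which was not run on the 3 arrays of P28. Over these probe sets, their differences within a gene and the named genes of the lists that passed, 4 of 92 groups of 4 arrays had such an array, and chance flags about 1 in 20 groups. At P1, replicate 1 was far above the other arrays for Id3 (10.57, against 9.77 to 9.90), S100a9 (8.89, against 7.15 to 7.38) and S100a8 (9.05, against 7.31 to 7.38). This is also the array with the highest Pax7 1452510_at value of its age. At P1, replicate 2 was below the others for Emcn (4.54, against 4.91 to 4.97).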

How the results depend on the processing

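The cause of the changes given here was not tested. Pax7 1452510_at passed at P28 against either younger age (P12 first in each pair of values) with median centring (0.71 and 0.68), without dim probe sets (0.69 and 0.64), with array weights (0.70 and 0.79), with trend and robust options (0.69 and 0.64), with the replicate block (0.66 and 0.61) and with the Gapdh covariate (1.02 and 0.99), and in P28 against P12 with the 2 ages alone (0.69). Of these settings, the replicate block groups P28 arrays with younger arrays of the same number, a pairing that was not inferred for P28. Pax7 1452510_at did not pass with quantile normalization (0.64 and 0.44; limma, adjusted p = 0.0517 and 0.162). With the beta-actin covariate it did not pass either (0.99 and 0.93; limma, adjusted p = 0.0614 and 0.0588). It passed in 10 of 20 alternative settings in P28 against P12 and in 8 of 20 in P28 against P1. In the settings listed above, the number of Pax3 and Pax7 probe sets that passed in P28 against P12 was 2 in each where 1452510_at passed. With 1 probe set per gene it was 0, also in P28 against P1. The beta-actin covariate gave 0 for P28 against P12 and 1 for P28 against P1. Averaging the probe sets of a gene gave 1 in P28 against P1. At P12 against P1 it was 1 with that average, the replicate block, either covariate and the array set block. The mean of the Pax3 probe sets gave 0.36 (P12 against P1), 0.30 (P28 against P12, where 1441743_at alone had -0.12) and 0.66 (P28 against P1), and the Pax7 mean gave -0.011, 0.32 and 0.30. Pax3 1420389_at passed in P12 against P1 with the replicate block (0.44), the array set block (0.44), the Gapdh covariate (0.42) and the beta-actin covariate (0.45), and it did not pass in P28 against P1 with these covariates (0.36 and 0.39). Its sign turned in P28 against P12 (-0.062 with Gapdh and -0.057 with beta-actin), where 1430335_a_at with the beta-actin covariate had 0.51 and did not pass.

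Signs of changes near 0 turned as follows. In P28 against P12, 1441743_at had 0.088 and 0.041 and 1444596_at 0.26 and 0.25 with the Gapdh and beta-actin covariates. In P28 against P1, 1444596_at had 0.31 and 0.27 with them, 0.011 with median centring and 0.070 with array weights. In P12 against P1 it had -0.20 with quantile normalization and -0.15 within array set 1, and 1452510_at had 0.10 with array weights and 0.22 within array set 2. Of the pairs in P12 against P1, the Pax7 pair had -0.0018 with quantile normalization and -0.012 within array set 2, and 1441743_at minus 1430335_a_at had 0.11 within array set 1. With the Gapdh and beta-actin covariates, 1441743_at minus 1420389_at had 0.15 and 0.10 in P28 against P12 and 0.047 (Gapdh) in P28 against P1. With them 1441743_at minus 1430335_a_at did not pass in P28 against P12 (-0.46 and -0.47) or P28 against P1 (-0.47 and -0.51), nor did the Pax7 pair in P28 against P1 (-0.68 and -0.66) and, with beta-actin, P28 against P12 (-0.74).

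The number of all probe sets that passed was 2181 at P12 against P1, and 13229 and 15753 at P28 against P12 and P1. It became 1195, 5716 and 6656 with 1 probe set per gene and 1253, 5856 and 6921 with the mean (in part because fewer features are tested), and the test for any age gave 7098 and 7291 in place of 16349. It was 3426 at P12 against P1 and 8697 at P28 against P12 with the Gapdh covariate, 7496 in P28 against P12 with beta-actin, and 4065 with the array set block and 230 within array set 1 in P12 against P1. Pairs that passed numbered 270, 4389 and 5631. They became 75, 2617 and 3471 without dim probe sets, 679, 2180 and 3108 with Gapdh and 635, 1703 and 2866 with beta-actin. In P12 against P1 they were 503 with array weights, 170 with the 2 ages alone, 658 with the array set block, 0 within array set 1 and 3 within array set 2.

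With each array left out, the probe sets that passed in P12 against P1 numbered 1029 to 2213, the lowest without P1 replicate 4, and the pairs 77 to 323, and 2876 to 4789 in P28 against P12, the lowest without P28 replicate 3. The number of Pax3 and Pax7 probe sets in P28 against P12 was 1 to 2. Pax7 1444596_at ranged over -0.080 to 0.15 in P12 against P1, -0.17 to 0.035 in P28 against P12 and -0.14 to 0.089 in P28 against P1. Pax7 1452510_at ranged over -0.19 to 0.19, 0.57 to 0.89 and 0.50 to 0.88 in that order, and Pax3 1441743_at over -0.33 to 0.0029 in P28 against P12 and -0.020 to 0.31 in P28 against P1. The pair 1441743_at minus 1420389_at ranged over -0.30 to 0.012 in P12 against P1 and -0.78 to -0.24 in P28 against P1. The pair 1441743_at minus 1430335_a_at ranged over -0.24 to 0.084, -1.09 to -0.71 and -1.13 to -0.81, and the Pax7 pair over -0.046 to 0.15 in P12 against P1 and -0.79 to -0.60 in P28 against P1. Pax7 minus Pax3 ranged over -0.0325 to 0.18 in P28 against P12. The replicate block changed no other call on a Pax3 or Pax7 probe set. The arrays are few, and P28 differs from the other ages in muscles and possibly batch.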
